A study of Mus musculus with 6 samples.

Results

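The enzymes that release arachidonic acid and turn it into prostaglandins and leukotrienes were followed through 10 genes in primary mouse hepatocytes with and without IL-1β. The 10 genes were chosen by symbol, as *Pla2g4a*, *Pla2g12a*, *Ptgs1*, *Ptgs2*, *Ptges*, *Ptges2*, *Ptges3*, *Alox5ap*, *Hpgd* and *Ptgr1*, and all 10 were found among the 23282 genes of the deposited table. Hepatocytes of C57BL6/N mice, isolated from liver by collagenase perfusion and cultured in 12-well plates, received no treatment (control, 3 samples) or recombinant IL-1β protein for 24 h (3 samples). Age and the IL-1β dose of these cultures are not given in the labels, and the deposited text speaks of 2 samples in each group but lists 3, all of which were used. Nothing states that the 3 samples of a group came from separate animals or isolations, so the p-values measure only the spread between these samples, which may be technical.

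Eicosanoids are signalling lipids made from arachidonic acid, a fatty acid stored in membrane phospholipids. Phospholipases A2 release it, the cyclooxygenases COX-1 and COX-2 convert it to prostaglandin H2, and terminal synthases turn that into the individual prostanoids, among them prostaglandin E2 (PGE2). In the other branch, 5-lipoxygenase starts leukotriene synthesis with the help of its activating protein FLAP, and oxidoreductases inactivate the finished mediators. In liver, much of the eicosanoid supply is known to come from Kupffer cells, the resident macrophages, while hepatocytes take up and break down prostaglandins and leukotrienes. COX-2 and the microsomal PGE synthase encoded by *Ptges* are the classical cytokine-inducible enzymes of the pathway.

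RNA was sequenced by the QuantSeq 3′ method, which yields reads from the 3′ end of an mRNA, so a count is not divided by transcript length and levels of different genes can be set side by side as counts of transcript ends. The libraries held 9538741 to 11105408 counts, and 3 counts in a library corresponded to 0.269 to 0.321 CPM, the unit used here for counts set to a shared library size by TMM. These limits, and the intervals on counts given here, cover counting error only. IL-1β was compared with control by edgeR's quasi-likelihood test on the raw counts, with Benjamini-Hochberg adjustment over the 11657 genes that had enough counts. At an adjusted p below 0.05 it called 1563 genes, or 13.4% of those tested, with 812 (6.97%) higher and 751 (6.44%) lower after IL-1β. Scaling by total counts alone changed that split to 662 higher and 1008 lower. In bulk RNA, fewer cells of a type and less RNA per cell cannot be told apart.

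Of the 10 enzymes, 6 had enough counts to be tested. *Pla2g12a* and *Ptges2* rose by about the same factor, none of the 6 was called lower, and the other 4 tested genes (*Ptges3*, *Ptgs1*, *Hpgd* and *Ptgr1*) did not pass the threshold. *Ptgs2*, *Ptges*, *Pla2g4a* and *Alox5ap* had too few counts for the test. The inducible *Ptgs2* had 0 reads in control and 10 after IL-1β, with none in the third IL-1β library. The inducible *Ptges* had 2 reads in control and 26 after IL-1β. Without the filter on low counts neither was called (adjusted p of 0.142 for *Ptgs2* and 0.0634 for *Ptges*, edgeR). The median log2 fold change of the 6 tested genes was 0.31, against -0.002 over all genes tested, and 3 of the 6 had an unadjusted p below 0.05, as had 23.6% of all genes tested. The 2 called genes of 6 stand beside 13.4% of all genes called in either direction. The values of the groups did not overlap in 4 of the 6, against 28.2% of all genes tested. Of these 4, *Ptgr1* was lower after IL-1β, and *Pla2g12a*, *Ptges2* and *Ptges3* were higher. DESeq2, an alternative count test, also called 2 of the enzymes, and 10.7% of the 12816 genes it tested.

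*Ptgs2* and *Ptges* are the inducible members, with few reads, most of them after IL-1β, and no call. *Ptges2* is the PGE synthase gene that passed the test. The promoters of these 3 genes are shown. Each is the run of 250 bases before the RefSeq gene start on GRCm38.p6, written 5′ to 3′ on the gene's strand, with matches to searched motifs in capitals. The *Ptgs2* sequence is chr1:150099781-150100030 on the plus strand, that of *Ptges* is chr2:30903298-30903547 on the minus strand, and that of *Ptges2* is chr2:32395640-32395889 on the plus strand.
Ptgs2: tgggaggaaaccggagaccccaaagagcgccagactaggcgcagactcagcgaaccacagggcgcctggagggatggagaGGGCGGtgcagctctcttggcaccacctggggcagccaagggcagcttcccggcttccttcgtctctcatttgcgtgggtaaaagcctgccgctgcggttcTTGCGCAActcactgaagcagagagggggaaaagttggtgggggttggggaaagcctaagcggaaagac
Ptges: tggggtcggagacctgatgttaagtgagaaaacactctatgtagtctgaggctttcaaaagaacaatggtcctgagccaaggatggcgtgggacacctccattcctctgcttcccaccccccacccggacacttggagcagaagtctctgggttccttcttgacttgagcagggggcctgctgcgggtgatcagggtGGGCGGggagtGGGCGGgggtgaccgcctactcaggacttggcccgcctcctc
Ptges2: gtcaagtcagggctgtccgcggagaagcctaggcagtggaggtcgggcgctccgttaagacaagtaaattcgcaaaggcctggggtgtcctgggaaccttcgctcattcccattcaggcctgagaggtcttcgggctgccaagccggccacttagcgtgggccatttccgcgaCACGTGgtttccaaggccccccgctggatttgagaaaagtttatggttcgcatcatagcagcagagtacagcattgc

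The capitals in *Ptgs2* mark a GC box (GGGCGG) from -170 to -165 and a match to the C/EBP motif TTGCNNAA from -69 to -62, counted from -1 at the base before the gene start. Those in *Ptges* mark GC boxes from -53 to -48 and from -42 to -37, and those in *Ptges2* mark an E-box (CACGTG) from -77 to -72. Both strands were searched. Among 32851 promoter windows of the same length, 32.7% held a GC box, 9.56% the C/EBP motif and 6.02% the E-box. The AP-1 motif TGANTCA (6.75% of windows), the CRE core TGACG (17.8%), the TATA box TATAAA (12.4%) and the κB consensus (7.25%) had no match in these 3 windows. The deposited table starts *Ptgs2* at 150100124, downstream of the window end at 150100030, and the bases between were not searched. Motifs there would have been missed. A promoter entry was matched for 9 of the 10 genes, all but *Alox5ap*, and of those 9 only *Ptges3* held a κB match, from -87 to -78, overlapping a GC box from -79 to -74. The window of *Pla2g12a* and a window of *Pla2g4a* lie inside the gene intervals of the deposited table. A match is a description of letters and was not tested against binding or expression.

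Phospholipases A2 open the pathway. *Pla2g12a*, which encodes the secreted group XIIA phospholipase A2, lies at chr3:129878606-129895825. It held 816, 997 and 913 counts in the control libraries and 1066, 1317 and 1270 after IL-1β. All 3 IL-1β libraries were above all 3 controls, also after scaling. The level rose from 86.0 ± 8.18 CPM in control (SD, n = 3) to 119.5 ± 6.40 CPM (SD, n = 3), which is 0.48 on the log2 scale with a standard error of 0.083 and a 95% interval of 0.30 to 0.65. This is an increase of 39.1% (adjusted p = 1.8e-04, edgeR), and the exact two-sided permutation test gave p = 0.1, the smallest that 3 against 3 samples can give. It was the second most abundant of the 6 tested enzymes, above 85.4% of all genes tested. An unmoderated test on log2(CPM + 1), which takes the spread from each gene alone, gave an adjusted p of 0.0879.

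*Pla2g4a* encodes cytosolic phospholipase A2α, the calcium-dependent enzyme with a preference for arachidonate. It lies at chr1:149829619-149961290, and its GENCODE annotation ends 138741 bp from that of *Ptgs2*. Its counts were 4, 4 and 0 in the control libraries and 4, 7 and 2 after IL-1β. The groups overlapped, and the ratio of the pooled counts, scaled to the TMM-adjusted library sizes as for the other such ratios, was 1.69 with an exact interval of 0.649 to 4.70. Without the filter on low counts, edgeR gave an adjusted p of 0.792. The counts are compatible with a change of any size within the interval of the ratio.

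The cyclooxygenases were near the limit of detection. *Ptgs1*, which encodes the constitutive COX-1, lies at chr2:36230426-36252271, where the annotation also places a predicted gene on the opposite strand. It held 10, 8 and 1 counts in the control libraries and 15, 12 and 7 after IL-1β. The highest control exceeded the lowest IL-1β library, and the third control, with a single read, set most of the spread in its group. The level was 0.586 ± 0.434 CPM (n = 3, SD) in control and 1.14 ± 0.477 CPM (n = 3, SD) in the IL-1β cultures. The log2 fold change of 0.91 had a standard error of 0.643 and a 95% interval of -0.42 to 2.24, with an adjusted p of 0.441 from edgeR. Only 0.317% of the genes tested had a lower mean level.

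*Ptgs2*, which encodes COX-2, lies at chr1:150100124-150108012. No read was counted in any control library, and 7, 3 and 0 were counted in the IL-1β libraries. The third IL-1β library therefore did not differ from the controls in its count. Over the 31210509 control counts, a count of 0 allows a level of up to 0.0945 CPM. The observed pooled IL-1β level was 3.47-fold above that limit. This value leaves out the counting error of the 10 IL-1β reads and the spread between libraries, so it is not a lower bound. The exact permutation test gave p = 0.4, and without the filter on low counts edgeR gave an unadjusted p of 0.0206 and an adjusted p of 0.142. *Ptgs2* was thus not called.

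The part of *Ptgs2* in all cyclooxygenase counts (*Ptgs1* plus *Ptgs2*) does not depend on library scaling. It was 7 of 22 counts (31.8%, exact Clopper-Pearson 95% interval 13.9 to 54.9) in the first IL-1β library, 3 of 15 (20.0%, 4.33 to 48.1) in the second and 0 of 7 (upper bound 41.0%) in the third. In control it was 0 of 10, 0 of 8 and 0 of 1, with upper bounds of 30.9%, 36.9% and 97.5%. The intervals of the libraries overlap between groups. The means differed by 17.3 percentage points (exact two-sided permutation test, p = 0.4). The difference was 10 points without the first IL-1β library and 25.9 without the third, so a shift between the cyclooxygenases was not resolved by these counts. *Ptgs1* gave the larger number of reads in every library.

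Beyond the cyclooxygenases, 3 genes encode enzymes with PGE synthase activity, and they differed in abundance by orders of magnitude. *Ptges3* encodes p23, a co-chaperone of HSP90 that also acts as a cytosolic PGE synthase, and lies at chr10:128058982-128077254. It held 3180, 3347 and 2965 counts in the control libraries and 3128, 3471 and 3520 after IL-1β. After TMM scaling, the controls lay within 1 CPM of each other and all 3 IL-1β libraries lay above them. The level was 299.0 ± 0.491 CPM (n = 3, SD) in control and 332 ± 3.90 CPM (n = 3, SD) in the IL-1β cultures. The log2 fold change was 0.15 with a standard error of 0.062 and a 95% interval of 0.02 to 0.28, and with an adjusted p of 0.127 from edgeR it was not called. The unmoderated test, in which the narrow spread of this gene counts in full, gave an adjusted p of 0.0123. With scaling by total counts alone the log2 fold change was 0.096 (adjusted p = 0.408, edgeR). *Ptges3* was above 96.4% of the genes tested.

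*Ptges2* encodes a constitutively expressed, membrane-associated PGE synthase and lies at chr2:32395890-32402740. Its counts were 221, 280 and 198 in the control libraries and 301, 323 and 300 after IL-1β. All 3 IL-1β libraries were above all 3 controls. The level rose from 21.9 ± 2.75 CPM in control (SD, n = 3) to 30.4 ± 2.22 CPM (SD, n = 3), an increase of 38.2% at a log2 fold change of 0.47 (standard error 0.127, 95% interval 0.21 to 0.73). The adjusted p was 0.0129 by edgeR and 0.0232 by DESeq2. Its mean level was above that of 54.2% of the genes tested, whose median was 22.3 CPM. The call was lost without the third control (adjusted p = 0.0661), without the first IL-1β sample (0.0663) or without the second (0.0544), and under the unmoderated test (0.139), while the log2 fold change stayed at or above 0.40.

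*Ptges*, at chr2:30889471-30903297, encodes microsomal PGE synthase 1, the inducible enzyme that is known to act together with COX-2. It held 0, 0 and 2 counts in the control libraries and 6, 12 and 8 after IL-1β. Every IL-1β library was above every control (p = 0.1 in the two-sided exact permutation test, its lowest value here). The ratio of the pooled counts was 13.5, with an exact interval of 3.39 to 118. Without the filter on low counts, edgeR gave an unadjusted p of 0.00716 and an adjusted p of 0.0634, and DESeq2 gave an adjusted p of 0.0695. With the third control left out, which held both control reads, the adjusted p was 0.0317, and over the samples left out in turn it ranged up to 0.260. A processed pseudogene lies in the same annotated interval and strand, but none of the 75-nt windows in the last 500 nt of the *Ptges* transcripts occurred in another gene.

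Of the counts of the 3 PGE synthase genes together, *Ptges* made up 0 of 3401, 0 of 3627 and 2 of 3165 in the control libraries, and 6 of 3435, 12 of 3806 and 8 of 3828 after IL-1β. These are 0.0211 ± 0.0365% (SD, n = 3) in control and 0.233 ± 0.0733% (SD, n = 3) after IL-1β. The groups did not overlap, and the difference of 0.212 percentage points had the smallest p that the exact permutation test allows (two-sided p = 0.1). In each IL-1β library *Ptges3*, whose product is also a co-chaperone, still supplied most of the reads of these 3 genes.

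**Figure D1:**
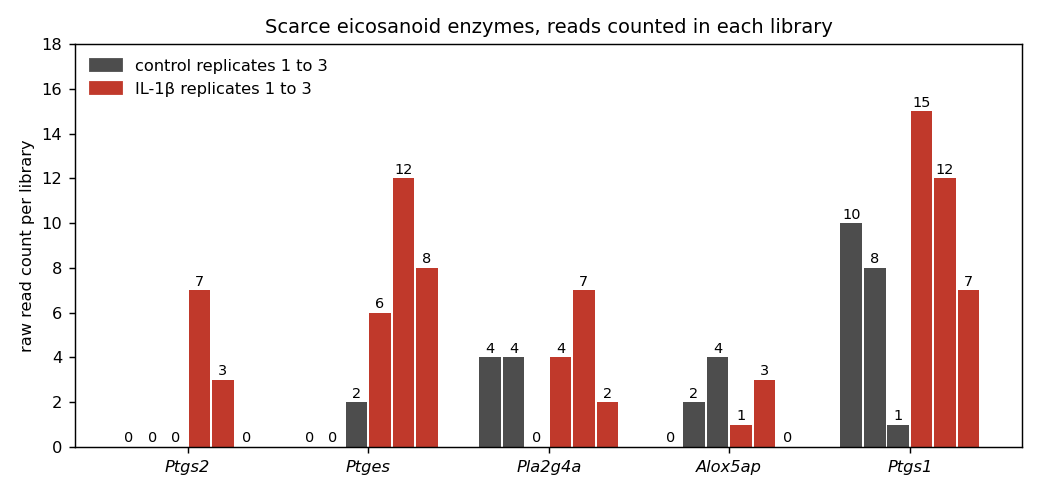
Raw read counts of the 5 scarcest enzymes in each library. The vertical axis is the number of reads counted per library, dark bars are control replicates 1 to 3 and red bars IL-1β replicates 1 to 3, with the count above each bar. *Ptgs2* has 7, 3 and 0 reads after IL-1β and none in control, and *Ptges* has 6, 12 and 8 against 0, 0 and 2, while the groups overlap for *Pla2g4a*, *Alox5ap* and *Ptgs1*.

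In the leukotriene branch, *Alox5ap* encodes FLAP, a membrane protein of leukocytes that presents arachidonate to 5-lipoxygenase, and lies at chr5:149265004-149288153. It held 0, 2 and 4 counts in the control libraries and 1, 3 and 0 after IL-1β. The groups overlapped, and the ratio of the pooled counts was 0.693, with an exact interval of 0.144 to 2.92. Without the filter on low counts edgeR gave an adjusted p of 0.907. *Alox5*, the 5-lipoxygenase gene itself, had no read in any of the 6 libraries, which over 62340576 counts allows a level of up to 0.0482 CPM. An antisense gene is annotated across *Alox5ap*, and the strand setting of the counting is not given.

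Inactivation is covered by *Hpgd* and *Ptgr1*. *Hpgd* encodes 15-hydroxyprostaglandin dehydrogenase, which carries out the first step of prostaglandin breakdown, and lies at chr8:56294552-56321046, where a predicted gene overlaps it on the same strand. It held 62, 47 and 30 counts in the control libraries and 36, 35 and 65 after IL-1β. The highest library of each group exceeded the lowest of the other, and the spread within a group was far larger than the difference between them. The level was 4.35 ± 1.41 CPM (n = 3, SD) in control and 4.42 ± 1.43 CPM (n = 3, SD) in the IL-1β cultures. The log2 fold change of 0.02 had a standard error of 0.319 and a 95% interval of -0.64 to 0.68 (adjusted p = 0.981, edgeR), and its sign changed with the scaling. The data are compatible with an increase or a decrease of any size within that interval.

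*Ptgr1* encodes prostaglandin reductase 1, also known as leukotriene B4 12-hydroxydehydrogenase, which acts on prostaglandin metabolites and on leukotriene B4. It lies at chr4:58965590-58987078. It held 141, 134 and 127 counts in the control libraries and 105, 122 and 106 after IL-1β. All 3 IL-1β libraries were below all 3 controls, with a level of 12.7 ± 0.634 CPM (n = 3, SD) in control and 10.9 ± 0.967 CPM (n = 3, SD) in the IL-1β cultures. The log2 fold change was -0.21, with a standard error of 0.172, a 95% interval of -0.57 to 0.14 and an adjusted p of 0.517 from edgeR. Separation of the groups, which 28.2% of all genes tested showed, was not enough for a call here.

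**Figure D2:**
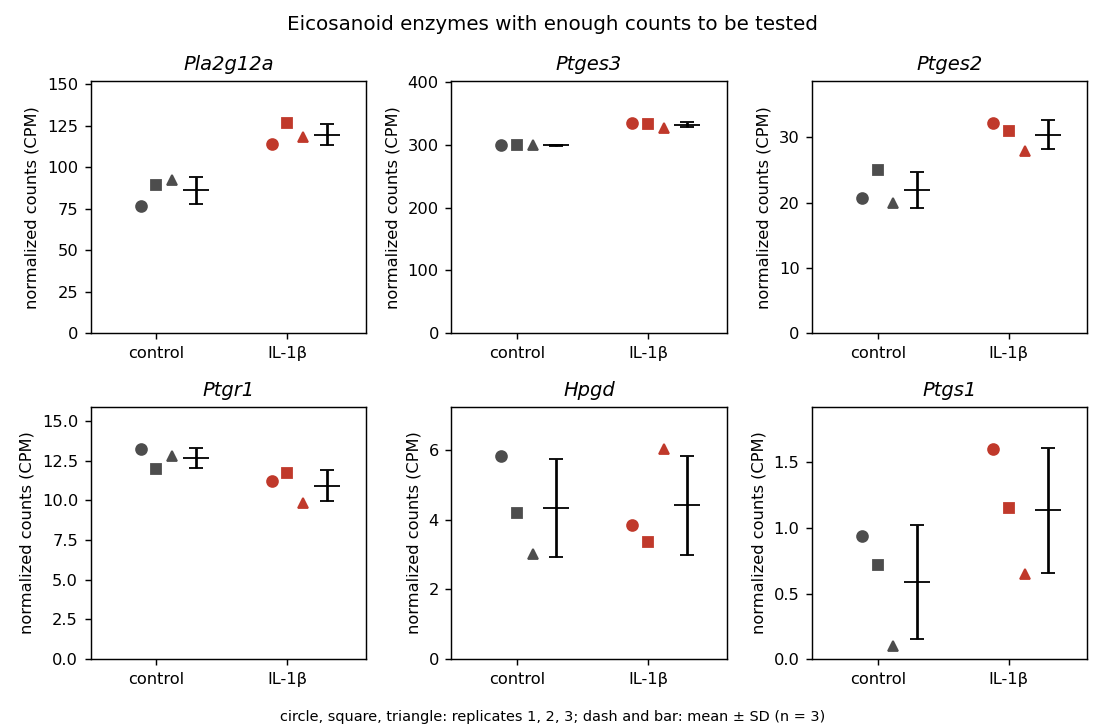
Levels of the 6 tested enzymes in each sample. The vertical axes give normalized counts (CPM) from 0, with a separate scale for each gene, circles, squares and triangles are replicates 1, 2 and 3, and the dash and bar are the mean ± SD of 3 samples. *Pla2g12a*, *Ptges3* and *Ptges2* lie higher in all 3 IL-1β samples and *Ptgr1* lower, while the groups of *Hpgd* and *Ptgs1* overlap.

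Across the 10 enzymes the order of levels was the same at its upper end in both groups, with *Ptges3* first, *Pla2g12a* next and *Ptges2* after it, followed by *Ptgr1*, *Hpgd* and *Ptgs1*. Among these 6, the ranges of 1 SD around the means of neighbouring genes did not overlap in either group. *Ptges*, *Pla2g4a*, *Ptgs2* and *Alox5ap* each had a mean under 1 CPM in both groups, *Ptges* after IL-1β was within the spread of *Ptgs1*, and the counts of the 4 do not order them.

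The remaining genes of the eicosanoid pathway were read in 5 lists by role, with 81 genes in all. Of these, 35 had enough counts to be tested, 24 had too few and 22 had no read in any library. After IL-1β 2 of the 35 were higher and 5 lower, and their median log2 fold change was -0.02, with 13.4% of all genes called. With total-count scaling 1 was higher and 8 were lower. DESeq2 called 6 of them, 14 had an unadjusted p below 0.05 (23.6% of all genes) and 14 showed no overlap between the groups (28.2% of all genes).

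In the list on arachidonate release and recycling, with 12 of 27 genes tested, 1 gene was higher and 1 lower. *Acsl4*, an acyl-CoA synthetase that prefers arachidonate and returns it to phospholipids, rose from 134.9 ± 16.3 CPM in control (SD, n = 3) to 178.8 ± 24.3 CPM (SD, n = 3), which is 0.41 on the log2 scale (SE 0.092 and adjusted p = 0.00273, edgeR). *Pla2g12b* fell from 21.7 ± 1.02 CPM in control (SD, n = 3) to 10.8 ± 1.76 CPM (SD, n = 3), which is -1.02 on the log2 scale (SE 0.157 and adjusted p = 3.4e-05, edgeR). *Pla2g12b* is the relative of *Pla2g12a* that lacks phospholipase activity and is known for a role in hepatic lipoprotein secretion, so the pair of group XII genes passed the test in opposite directions in the same libraries. Of the abundant genes that were not called, *Lpcat3*, an acyltransferase for arachidonate, had a log2 fold change of -0.08 (95% interval -0.23 to 0.07), and *Mboat7*, which places arachidonate in phosphatidylinositol, had -0.26 (95% interval -0.48 to -0.05, adjusted p = 0.101, edgeR).

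Among the other prostanoid synthases, 7 of 11 genes were tested and edgeR called none, with none at an unadjusted p below 0.05 and none by DESeq2. The abundant *Cbr1*, a carbonyl reductase that can convert PGE2 to prostaglandin F2α, had a log2 fold change of 0.06 (95% interval -0.09 to 0.20). *Ptges3l*, a relative of *Ptges3*, had 0.21 (95% interval -0.19 to 0.61). Both intervals include 0.

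Of the lipoxygenases and leukotriene synthesis genes, 4 of 16 were tested and edgeR called none, with 1 at an unadjusted p below 0.05 and none by DESeq2. That gene was *Mgst1*, a microsomal glutathione S-transferase, at 422 ± 43.3 CPM (n = 3, SD) in control and 484 ± 24.2 CPM (n = 3, SD) after IL-1β (log2 fold change 0.20, adjusted p = 0.0732, edgeR). *Lta4h*, the hydrolase that makes leukotriene B4, had a log2 fold change of 0.16 (95% interval -0.11 to 0.43). Besides *Alox5*, 5 other genes of the list had no read in any library.

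For breakdown and transport, 8 of 10 genes were tested, and edgeR called 1 higher and 3 lower, beside 13.4% of all genes called. DESeq2 called 3 genes of this list. Several of these calls depended on single samples, as given below. *Abcc4*, an exporter of prostaglandins, rose from 49.8 ± 1.57 CPM in control (SD, n = 3) to 60.7 ± 2.34 CPM (SD, n = 3), which is 0.29 on the log2 scale with an adjusted p of 0.0352 from edgeR. The epoxide hydrolases *Ephx1* and *Ephx2*, of which the latter hydrolyses epoxides of arachidonate, fell by 0.41 and 0.31 on the log2 scale, at adjusted p of 4.5e-04 and 0.0265 from edgeR. *Cyp4f14*, a cytochrome P450 that inactivates leukotriene B4 and belongs to a family of related genes that may share reads, fell from 10.6 ± 2.39 CPM in control (SD, n = 3) to 6.25 ± 1.15 CPM (SD, n = 3), which is -0.77 on the log2 scale with an adjusted p of 0.0238. *Zadh2*, a prostaglandin reductase, and *Slco2a1*, the prostaglandin uptake transporter, had log2 fold changes of 0.25 (adjusted p = 0.119, edgeR) and -0.04 (95% interval -0.32 to 0.23).

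The receptor list had 17 genes, of which 4 were tested and 5 had no read in any library. *Pparg*, a nuclear receptor that binds fatty acid derivatives, fell from 10.4 ± 2.87 CPM in control (SD, n = 3) to 4.25 ± 1.76 CPM (SD, n = 3), which is -1.28 on the log2 scale (SE 0.276 and adjusted p = 0.00176, edgeR). The prostaglandin receptors *Ptgdr2* and *Ptger1* had log2 fold changes of 0.25 (95% interval -0.11 to 0.60) and -0.04 (95% interval -0.48 to 0.41). Both lie across protein-coding genes of the opposite strand in the annotation, and so do *Lpcat3*, *Mboat7* and *Ptges3l* of the lists above, so part of their reads may belong to those genes.

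**Figure D3:**
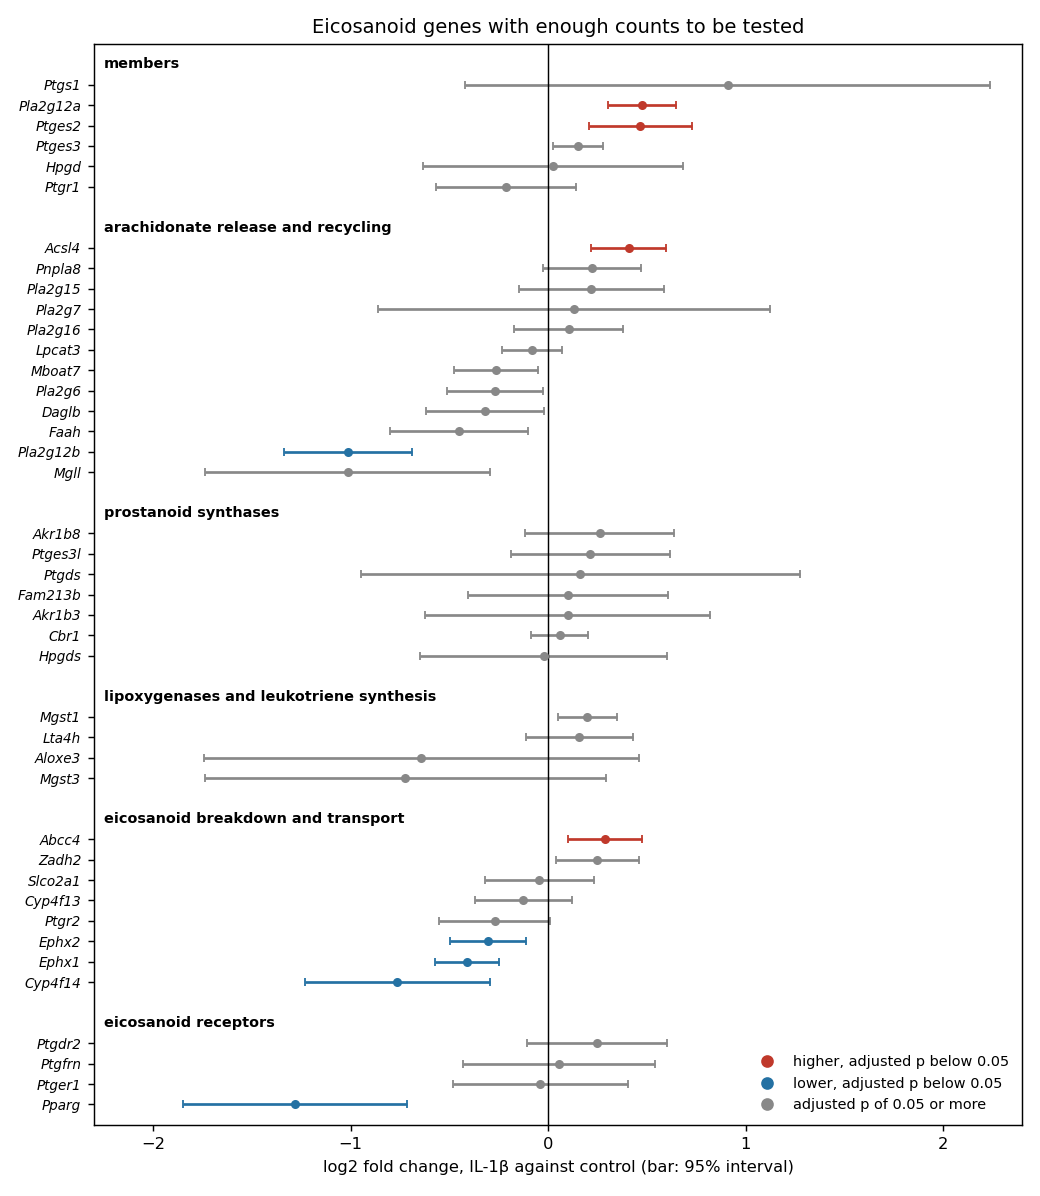
Log2 fold changes of the 6 tested enzymes and of 35 other eicosanoid genes in 5 role lists. The horizontal axis is the log2 fold change of IL-1β against control, points are edgeR estimates and bars their 95% intervals, with red for genes called higher, blue for genes called lower and grey for the rest. *Pla2g12a* and *Ptges2* are the red members at 0.48 and 0.47, *Pla2g12b* and *Pparg* the blue genes near -1, and the widest interval among the members is that of *Ptgs1*.

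Several of the calls depended on single samples or on the test. *Acsl4* was no longer called without the second IL-1β sample (adjusted p = 0.0525), *Abcc4* in 5 of the 6 fits that left a sample out, with an adjusted p of up to 0.127, and *Ephx2* in 4 of them, with up to 0.183. With all samples *Abcc4* was also not called by DESeq2 (adjusted p = 0.0505), or by edgeR with upper-quartile (0.0612) or total-count scaling (0.108). *Cyp4f14* lost its call without the first control, the first IL-1β sample or the third, with an adjusted p of up to 0.140. *Ephx1*, *Pla2g12b* and *Pparg* passed in all 6 of these fits, and the unmoderated test kept only *Pla2g12b* of the 7 (adjusted p = 0.0422).

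Because *Alox5ap*, *Ptgs1* and *Ptgs2* are known from other liver cells and from blood cells, markers of those cells were read in the same libraries. The cells had been filtered and washed, and the deposited description names no further step to remove other liver cells. The summed level of 8 hepatocyte markers was 23260 to 23940 CPM in control and 21220 to 21970 CPM after IL-1β. *Alb* made up most of that sum. *Alb*, *Apoa1*, *Ttr*, *Cyp2e1* and *Tat* were called lower and *Hp* higher. The fall of *Tat* was the largest of the list, at -1.71 on the log2 scale (adjusted p = 0.00876, edgeR). The abundant markers matched the label hepatocyte. *Cps1* and *Tat* were scarce, with means over all samples of 2.36 and 2.09 CPM, and *Fabp1* had 32.5 CPM. *Apoa1* was not called by DESeq2 (adjusted p = 0.508) and lost its edgeR call without control sample 1 or without any of the 3 IL-1β samples in turn, with an adjusted p of up to 0.395. *Alb* lost its call without the second control (adjusted p = 0.0744, edgeR) or the first IL-1β sample (0.0894). The 13 macrophage markers, led by *Cd68*, *Ctss*, *Cd5l* and *Cd74*, summed to 247 to 277 CPM in control and 252 to 285 CPM after IL-1β. Of the 10 that were tested, edgeR and DESeq2 called none. An unadjusted p below 0.05 (edgeR) was found for 3 of the 10, and for 23.6% of all genes tested. All 3 had a higher mean after IL-1β, with log2 fold changes of 0.56 for *Cd74*, 0.67 for *Marco* and 0.75 for *C1qa*, and the median of the 10 was 0.38. *Cd5l* was lower in all 3 IL-1β samples than in any control (log2 fold change -0.21, adjusted p = 0.392, edgeR). *Cd68* and *Ctss* stood at -0.06 and -0.02 on the log2 scale. *Clec4f*, which was not tested, held 4, 27 and 7 counts in control and 6, 0 and 9 after IL-1β. *Cd68* made up most of the summed level, and the Kupffer cell gene *Timd4* had 0 or 1 count in every library. The ranges of this summed level overlapped between the groups, and the part of macrophage RNA in the reads of the scarce enzymes was not tested.

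Of the platelet and megakaryocyte markers *Ppbp*, *Gp9* and *Gp6* had no read, *Gp1bb* had 2 to 13 counts per library and *Itga2b* had a log2 fold change of -0.08 (95% interval -0.80 to 0.64). *Pf4*, a chemokine of platelets and macrophages, held 2, 0 and 1 counts in control and 30, 25 and 36 after IL-1β, a ratio of 31.5 (exact interval 10.5 to 156). Of 7 neutrophil markers in the table, *S100a9*, *Mpo*, *Elane* and *Retnlg* had no read, and *Csf3r* and *Camp* had at most 2 counts in a library. *S100a8* held 0, 0 and 0 counts in control and 19, 36 and 51 after IL-1β, an observed level 36.7-fold above the limit that the control counts allow. Both *Pf4* and *S100a8* had enough counts to be tested. They were called higher by edgeR (adjusted p = 1.3e-05 for *Pf4* and 2.2e-06 for *S100a8*) and by DESeq2 (1.2e-05 and 1.4e-07). *Pf4* and *S100a8*, like *Ptges*, were higher in all 3 IL-1β libraries than in any control, and their part in the reads of *Ptges* was not tested.

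The 7 endothelial markers, with *Eng*, *Lyve1*, *Cdh5* and *Pecam1* the most abundant, summed to 71.9 to 79.9 CPM in control and 72.4 to 77.2 CPM after IL-1β, with 1 called higher (*Lyve1*, log2 fold change 0.45, adjusted p = 0.0274, edgeR) and 2 lower. The 2 lower genes changed more, *Clec4g* by -2.87 on the log2 scale (adjusted p = 1.9e-05, edgeR) and *Kdr* by -1.49 (adjusted p = 0.00511, edgeR), and *Stab2* stood at -1.16 (adjusted p = 0.209, edgeR). DESeq2 gave *Lyve1* an adjusted p of 0.0565, and it was not called without control sample 1 or 3 or IL-1β sample 2 or 3, with an adjusted p of up to 0.137. The stellate and mesenchymal markers *Dcn*, *Col3a1*, *Col1a1*, *Reln* and 3 others summed to 19.0 to 22.4 CPM in control and 21.1 to 27.4 CPM after IL-1β, and of the 2 tested edgeR called none, with none at an unadjusted p below 0.05 and none by DESeq2. The cholangiocyte list summed to 316 to 330 CPM in control and 236 to 240 CPM after IL-1β. In that list *Spp1* fell (log2 fold change -1.20, adjusted p = 4.4e-12, edgeR), while *Sox9* stood at 0.21 on the log2 scale (adjusted p = 0.0519, edgeR) and the defining keratins *Krt19* and *Krt7* had at most 6 counts in a library.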

How the data were processed

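RNA of 6 primary hepatocyte cultures (3 control, 3 IL-1β) was sequenced as 75-nt single-end QuantSeq reads. Groups were taken from the sample labels. The authors deposited 1 table with raw read counts per gene, without normalization, and log2 normalized values (TMM and CPM, plus 1) per sample. It also holds their fold changes, p-values and group averages, which were not used. Per the labels and the submitters' processing notes, the authors aligned reads with Bowtie2 and used edgeR, on mm10 (GRCm38). The counting tool, strand setting and handling of multiply matching reads are not given in the sources used here.

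The deposited counts were tested with edgeR 4.0.16 in R 4.3.3 (filterByExpr, TMM, quasi-likelihood test, Benjamini-Hochberg adjustment over 11657 genes). Ratios of pooled counts have exact conditional intervals. For genes with no count, 3 counts over the group were taken as the upper limit of the level. Ratios to that limit took the IL-1β counts as observed. Exact permutation tests used Python 3.11.15 with scipy 1.17.1. Library totals were 9538741 to 11105408. The test was checked on simulated data of 11461 genes for this comparison. There it called 91.5% of 200 changed genes, and 5.67% of its calls were false. How often it would call changes as small as those of the enzymes, or genes as scarce, was not tested. The members and gene lists were chosen with earlier results of these data known. The genes named are the 10 members, every called gene of the role lists with the 2 most abundant uncalled genes of each, and the 4 most abundant genes of each marker list. *Alox5*, *Timd4*, *Clec4f*, *Gp9*, *Gp6*, *S100a9*, *Elane*, *Retnlg*, *Marco*, *C1qa*, *Clec4g*, *Kdr*, *Stab2*, *Cps1*, *Tat*, *Fabp1* and *Cyp2e1* were named after their values were seen.

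Alternatives were DESeq2 1.42.0, edgeR's exact test, limma 3.58.1 on log2(CPM + 1), log2(CPM + 0.1) or the deposited log2 values, an unmoderated test, upper-quartile, total-count and DESeq2 scaling, testing without a filter or only genes with 10 or more counts in each sample, the replicate number as a block, and leaving out each sample. Positions are those of the deposited table, overlaps and transcript ends are from the GENCODE annotation of GRCm38, and promoter sequences are from RefSeq (GRCm38.p6).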

Additional observations from a re-analysis of the deposited data

How the results depend on the processing

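Of the enzymes, 2 were called under the alternatives with all samples, except the unmoderated test, which called 1 (*Ptges3*, log2 fold change 0.15) and left *Pla2g12a* (0.47) and *Ptges2* (0.46) above the threshold. With samples left out, 1 to 2 were called, and the log2 fold change of *Ptges2* ranged from 0.40 to 0.58, that of *Pla2g12a* from 0.40 to 0.52 and that of *Hpgd* from -0.27 to 0.29. That of *Hpgd* was -0.029 with total counts and -0.0063 with upper-quartile scaling. The role lists had 4 to 8 called genes with samples left out and 1 under the unmoderated test, which called 5 marker genes in place of 12. Total-count scaling called 9 role list genes, with 1 higher and 8 lower in place of 2 and 5. With samples left out, the *Ptgs2* share differed by 10 to 25.9 percentage points. In fits without the filter, chosen after seeing the data, leaving out samples gave adjusted p of 0.0317 to 0.260 for *Ptges* and 0.773 to 0.991 for *Alox5ap* (edgeR), where the direction of *Alox5ap* changed in 2 fits. Leaving out samples also changed the direction of *Ctss* (-0.077 to 0.022), *Eng* (-0.048 to 0.12), *Itga2b* (-0.22 to 0.10), *Ptger1* (-0.22 to 0.13) and *Slco2a1* (-0.18 to 0.071), and upper-quartile and total-count scaling that of *Eng* (-0.013 and -0.039). The cause was not tested. The unmoderated test called 547 genes of all tested against 1563. Same-numbered control and IL-1β samples deviated together with correlations of 0.08, 0.03 and -0.005. Samples with different numbers were not compared in this way, so these values cannot settle whether same-numbered samples were paired. The replicate block called 1671 genes, with 2 enzymes (*Ptges2* 0.47, *Pla2g12a* 0.48), 8 role list genes and 13 marker genes. With that block the shares differed by 17.3 and 0.212 percentage points. Depth limits the 4 enzymes below 1 CPM that were not tested, and *Ptgs1*.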

Other observations

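A few scarce genes, chosen after their values were seen, had most of their reads in the third IL-1β library, where *Ptgs2* had none. *Ptger4*, a PGE2 receptor gene, held 4, 2 and 2 counts in control and 1, 2 and 12 after IL-1β. The secreted phospholipase gene *Pla2g2e* held 1, 0 and 0 counts in control and 1, 1 and 10 after IL-1β. *Fpr2*, a receptor for lipid and peptide mediators, held 0, 2 and 0 against 4, 1 and 8. In the same library *Col1a1* held 36 counts and *Pdgfrb* 13, against at most 12 and 3 in any other library.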
